A study of Mus musculus with 12 samples.

Results

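Expression of 10 plasma protein genes of the acute phase response was followed in the mouse liver: Hp, Hpx, Itih3, Itih4, Serpina3n, Serpina3m, Crp, Cp, Apcs and Fgl1. They were chosen by symbol, and all 10 of 10 symbols were found among the 20719 genes that carried a symbol, each on a single row of the table. The livers came from 12 mice, 1 array per mouse and 3 mice in each of 4 groups, and every value is a log2 expression level. Wild-type (WT) mice either ate chow or went without food, but not water, for 24 h, and knock-out (KO) mice were kept in the same 2 ways. KO mice carried an Albumin-Cre transgene, on the C57BL/6 background, together with a Lamp2 allele in which loxP sites flank 1 of its alternative last exons. Albumin-Cre is active in hepatocytes, and the isoform that ends in this exon, LAMP2A, is the receptor of chaperone-mediated autophagy. Whether WT mice carried Cre or floxed alleles, and the sex and age of the mice, are not given in the labels.

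The acute phase response is the change in plasma protein synthesis by which the liver answers injury, infection and other stress. In hepatocytes, interleukin-6 and related cytokines act through the receptor subunit gp130 and the transcription factor STAT3, while C/EBP factors, NF-kappaB and the glucocorticoid receptor act on many of the same genes. Positive acute phase proteins rise in plasma and include scavengers, protease inhibitors and pentraxins, while negative ones such as albumin and transthyretin fall. The make-up of the response differs between species: serum amyloid P (Apcs) is a major acute phase pentraxin in the mouse, whereas C-reactive protein (Crp), the main one in humans, responds little there.

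Markers of the labelled tissue were read on every array: the summed level of 9 hepatocyte markers, all found, lay between 16.65 and 16.95 on the log2 scale. The summed level of the 8 neutrophil markers found of 9 lay between 8.52 and 8.91. That of the Kupffer cell markers lay between 12.29 and 13.23, with 8 of 9 symbols found. The symbol not found, Adgre1, is another name of Emr1, which was found. No marker of these 3 lists was called in any comparison, and levels of different probes do not give the shares of these cells. Lamp2, read as a single value for the gene, lay between 12.24 and 12.61 in WT fed and 12.49 and 12.68 in WT starved mice. It lay between 12.49 and 12.81 in KO fed and 12.33 and 12.60 in KO starved mice. KO and WT values of Lamp2 overlapped in both feeding states. Where its probes lie is not given, so this value does not check the deletion of 1 exon. In pieces of whole liver, fewer cells of a type and less RNA per cell cannot be told apart. The number of arrays limits the precision of all comparisons.

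In WT mice, Fgl1, a fibrinogen-like protein secreted by hepatocytes, rose 3.23-fold with starvation, and it was the 1 gene of the 10 that passed the test. Serpina3n, Itih3, Itih4, Cp, Hp and Serpina3m had positive differences of 0.50 to 1.36 on the log2 scale that did not pass, and Hpx, Apcs and Crp lay between -0.13 and 0.21. In KO mice none of the 10 genes passed, and the differences ran from -0.39 for Apcs to 0.62 for Serpina3n. The test was limma on all 12 arrays, with p-values adjusted by Benjamini-Hochberg over all 20719 genes and called under 0.05. It called 1.41% of all genes for starvation in WT mice (137 higher and 155 lower) and 1.02% in KO mice (101 higher and 111 lower), so that 1 of 10 and 0 of 10 of these genes stand beside those shares. At an unadjusted p under 0.05, 5 of the 10 genes stood out for starvation in WT mice and 0 in KO mice, beside 2626 and 1932 of all genes. The median difference of the 10 genes was 0.56 in WT and -0.12 in KO mice, and the median of all genes was -0.005 and -0.026. The call of Fgl1 was lost when the fit held only the 2 WT groups (adjusted p = 0.0904, limma). With arrays weighted by how closely each followed its group mean, limma called 6 of the 10 genes in WT and 3 in KO mice. That stands beside 5600 and 7639 of all 20719 genes. These weights were estimated from the same values, with 3 arrays per group.

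**Figure D1:**
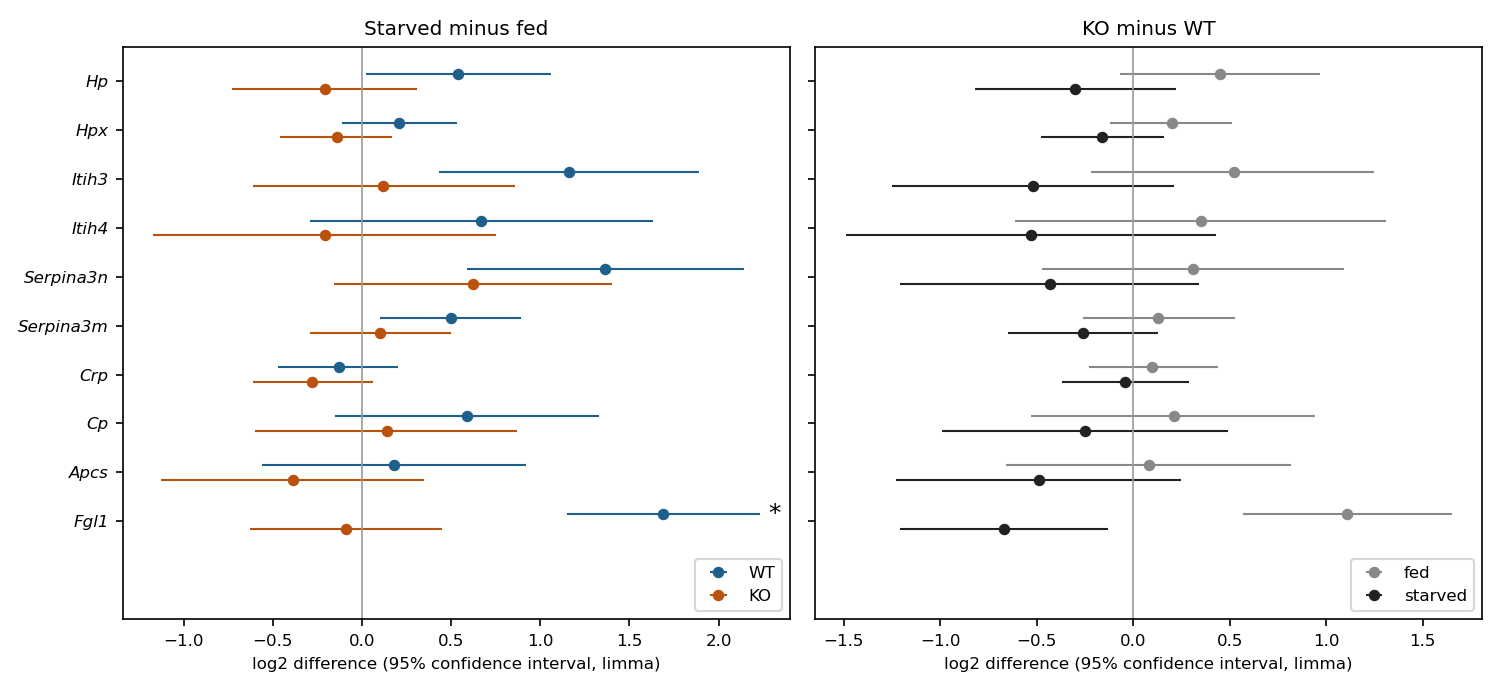
Log2 differences of the 10 genes with 95% confidence intervals from limma, for starved minus fed mice in each genotype (left) and KO minus WT mice in each feeding state (right). The star marks the 1 difference past the adjusted threshold, Fgl1 in WT mice at 1.69; in KO mice all 10 intervals for starvation include 0.

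Between genotypes no gene passed in either feeding state. In fed mice all 10 genes had higher means in KO than in WT livers, by 0.08 for Apcs to 1.11 for Fgl1 on the log2 scale, and in starved mice all 10 had lower means in KO livers, with differences from -0.67 for Fgl1 to -0.04 for Crp. Limma called 0 of the 10 genes and 0% of all genes in both comparisons, with 1 of the 10 genes under an unadjusted p of 0.05 in each (Fgl1), beside 603 of all genes in fed and 744 in starved mice. The median of the 10 genes was 0.26 in fed and -0.37 in starved mice, and that of all genes was -0.014 and -0.033. The test of the interaction, the KO response to starvation minus the WT response, also called 0 of the 10 genes and 0% of all genes. Its differences were negative for all 10 genes, from -1.78 for Fgl1 to -0.14 for Crp, with 3 of them (Fgl1, Hp and Itih3) under an unadjusted p of 0.05, beside 422 of all genes. These comparisons share their groups, so the 2 genotype differences and the 2 starvation differences are not independent of each other. Several of the 10 genes also varied together from mouse to mouse, so 10 of the same sign are not 10 separate observations. With each group centred on its mean, Pearson's r over the arrays was 0.98 for Serpina3n and Cp, but 0.15 for Serpina3n and Apcs. The share of all genes with the same sign was not counted. The directions also depended on single arrays: without KO fed F6 the differences of Itih4, Serpina3n, Serpina3m and Cp between fed genotypes were -0.03, -0.06, -0.01 and -0.11.

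**Figure D2:**
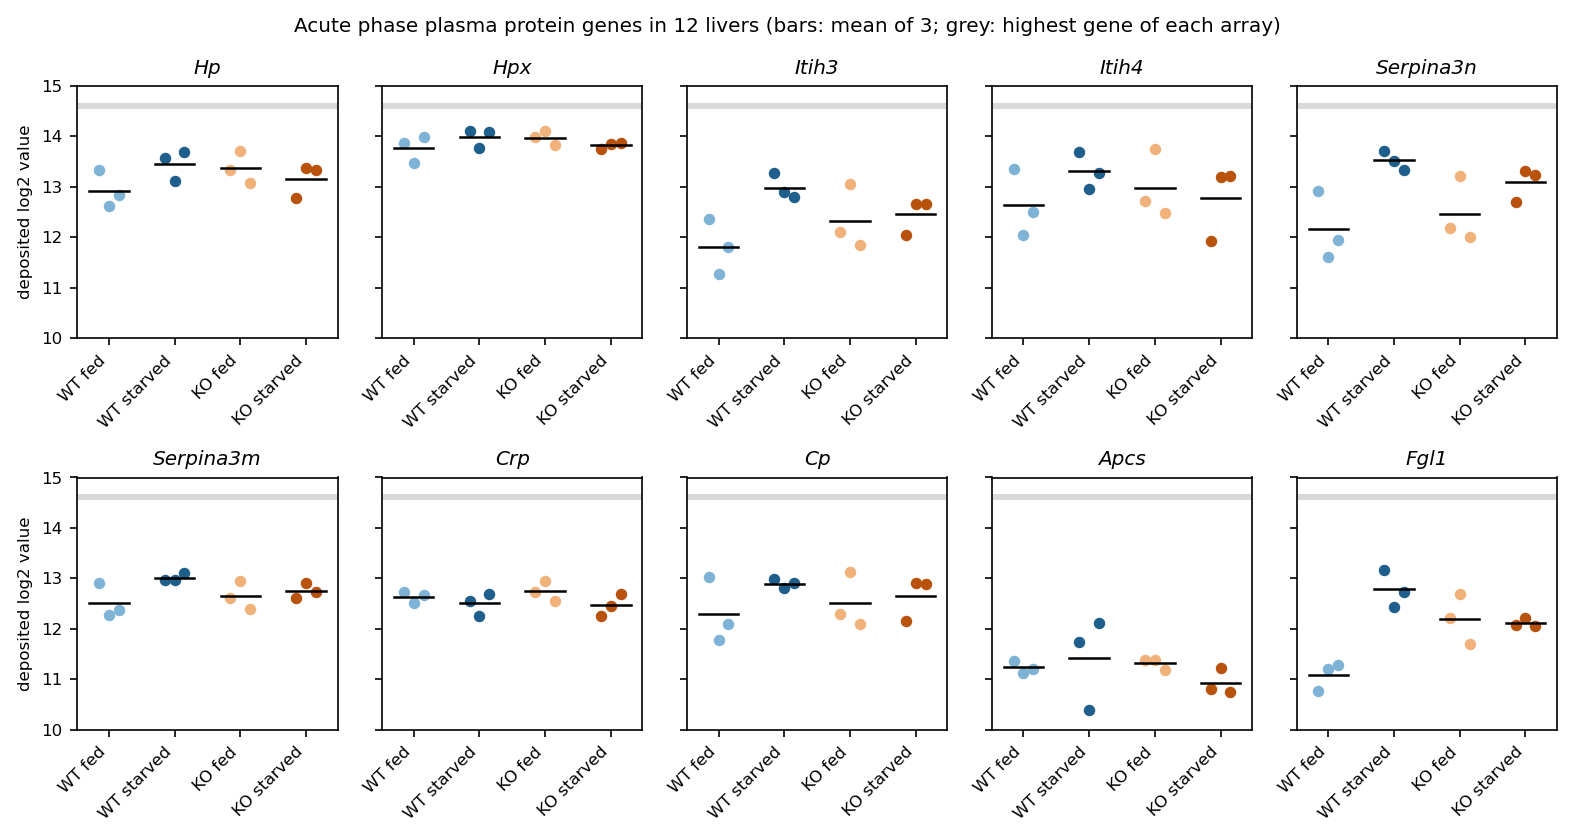
Deposited log2 value of each of the 10 genes by group, with 1 point per mouse, a black bar at the mean of 3 and a grey band at the highest gene of each array (14.55 to 14.67). The 3 WT fed mice are the lowest for Fgl1 (10.77 to 11.29), and in several other genes, such as Cp, 1 WT fed mouse (F1, 13.02) and 1 KO fed mouse (F6, 13.13) stand above the rest of their group.

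Hp and Hpx are the scavengers of the set: haptoglobin binds haemoglobin set free from red cells, and haemopexin binds free haem. The level of Hp was 13.33, 12.62 and 12.83 in WT fed, 13.57, 13.12 and 13.69 in WT starved, 13.33, 13.71 and 13.08 in KO fed, and 12.78, 13.37 and 13.33 in KO starved mice. The groups overlapped in every comparison, with the fed WT mouse F1 within the range of each of the other groups. Starvation differed by 0.54 ± 0.24 (SE, n = 3 per group, limma adjusted p = 0.377) in WT and -0.21 ± 0.24 (adjusted p = 0.92) in KO livers. The level of Hpx was 13.87, 13.48 and 13.98 in WT fed, 14.11, 13.77 and 14.08 in WT starved, 13.98, 14.10 and 13.84 in KO fed, and 13.75, 13.86 and 13.87 in KO starved mice. Hpx was the most even of the 10 genes, with all 12 arrays within 0.62, and its 4 differences between groups lay between -0.16 and 0.21.

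The genes that act after the scavengers were listed separately: 9 genes of the uptake and breakdown of haemoglobin and haem, all found. None of the 9 passed in any comparison. Cd163, the macrophage receptor for haptoglobin bound to haemoglobin, differed by 0.69 (limma adjusted p = 0.113) for starvation in WT and 0.44 (adjusted p = 0.472) in KO mice, and Blvrb, a biliverdin reductase, by 0.35 (adjusted p = 0.236) and 0.42 (adjusted p = 0.173). Of the 6 red cell markers found of 7, 2 were called lower with starvation in WT mice and 1 in KO mice, and none was called higher. Alas2, the first enzyme of haem synthesis in red cell precursors, fell by 1.65 in WT mice (adjusted p = 0.00238) and by 0.96 in KO mice (adjusted p = 0.0294). Car1, a red cell carbonic anhydrase, fell by 2.41 in WT mice (adjusted p = 0.0243), and its difference of -1.16 in KO mice did not pass. The other 4, among them the globin gene Hba-a1, lay between -0.11 and 0.02 in WT mice and between 0.30 and 0.65 in KO mice, and did not pass. Between starved genotypes all 6 had positive differences, with a median of 0.49, and none passed. The summed level of these markers was 13.84 to 14.11 in WT fed, 13.40 to 13.93 in WT starved, 13.70 to 14.15 in KO fed and 13.83 to 14.36 in KO starved mice, and their part in the values of Hp and Hpx was not tested.

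Itih3 and Itih4 encode heavy chains of the inter-alpha-trypsin inhibitor family, secreted proteins whose better known members are linked to hyaluronan in the extracellular matrix. In RefSeq the pair are neighbours, with 0 protein-coding genes between them. The level of Itih3 was 12.37, 11.27 and 11.81 in WT fed, 13.27, 12.89 and 12.79 in WT starved, 12.10, 13.06 and 11.84 in KO fed, and 12.05, 12.66 and 12.66 in KO starved mice. All 3 starved WT mice were above all 3 fed WT mice and above all 3 starved KO mice, while fed and starved KO mice overlapped. The difference for starvation in WT mice was 1.16 ± 0.33 (SE, n = 3 per group), 2.24-fold, at a limma adjusted p of 0.135. With the SD of each array as a covariate the difference was 0.95 and the adjusted p 0.0146. With each array left out in turn the adjusted p ran from 0.0615 to 0.425, and under the other settings from 0.0018 to 0.212. In KO mice the difference for starvation was 0.12 ± 0.33, and the interaction was -1.04 ± 0.47 (unadjusted p = 0.0496, adjusted p = 1).

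The level of Itih4 was 13.36, 12.05 and 12.51 in WT fed, 13.69, 12.96 and 13.27 in WT starved, 12.72, 13.75 and 12.49 in KO fed, and 11.92, 13.20 and 13.21 in KO starved mice. Each group but WT starved held mice more than 1 log2 unit apart, and all groups overlapped. The residual SD of 0.63 was larger than that of 98.4% of all genes, and none of the differences, from -0.53 to 0.67, passed. Among the 16 relatives of the members that were found of 19 listed, which include Itih1, Itih2 and Itih5, the bikunin gene Ambp, the other Serpina3 genes and the fibrinogen chains, none passed in any comparison.

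The promoters of these neighbours are given to show which searched motifs each holds, with that of Serpina3n, described next, and of the pentraxin Apcs, whose starved WT values were the widest apart. Each runs from 250 bases before to 50 bases after the start of the gene, 5′ to 3′ on the gene's strand, from RefSeq on build GRCm38.p6. Itih4 is at chr14:30886226-30886525 (+ strand), Itih3 at chr14:30923538-30923837 (- strand), Serpina3n at chr12:104406458-104406757 (+ strand) and Apcs at chr1:172895005-172895304 (- strand). Capitals mark matches, on either strand, to 4 searched motifs: STAT3 (TTCNNNGAA), the IL-6 type 2 element (CTGGGA), C/EBP (TTNNGNAA) and the glucocorticoid receptor (ACANNNTGT).
Itih4 promoter: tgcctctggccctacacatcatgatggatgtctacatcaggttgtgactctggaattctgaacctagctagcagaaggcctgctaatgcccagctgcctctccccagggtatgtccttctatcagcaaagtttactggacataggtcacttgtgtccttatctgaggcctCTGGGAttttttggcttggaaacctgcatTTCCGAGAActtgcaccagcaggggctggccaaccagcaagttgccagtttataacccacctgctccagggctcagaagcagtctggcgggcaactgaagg
Itih3 promoter: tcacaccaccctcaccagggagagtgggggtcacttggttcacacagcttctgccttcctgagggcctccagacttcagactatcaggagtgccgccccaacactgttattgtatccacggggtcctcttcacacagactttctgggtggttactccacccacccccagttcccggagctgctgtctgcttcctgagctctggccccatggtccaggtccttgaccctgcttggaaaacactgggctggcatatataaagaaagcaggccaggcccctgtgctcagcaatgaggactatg
Serpina3n promoter: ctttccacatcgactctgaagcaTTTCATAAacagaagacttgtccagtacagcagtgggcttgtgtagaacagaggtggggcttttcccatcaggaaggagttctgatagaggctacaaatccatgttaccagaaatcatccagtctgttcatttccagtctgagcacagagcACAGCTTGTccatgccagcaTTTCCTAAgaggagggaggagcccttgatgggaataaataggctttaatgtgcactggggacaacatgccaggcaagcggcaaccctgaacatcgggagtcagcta
Apcs promoter: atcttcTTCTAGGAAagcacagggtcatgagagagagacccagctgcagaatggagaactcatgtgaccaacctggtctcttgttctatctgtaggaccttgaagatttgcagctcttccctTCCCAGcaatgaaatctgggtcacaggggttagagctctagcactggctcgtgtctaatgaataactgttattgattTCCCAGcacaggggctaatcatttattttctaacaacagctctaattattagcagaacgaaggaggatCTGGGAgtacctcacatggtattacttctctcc
The Itih4 window held the IL-6 type 2 letters from base -80 to -75 and the STAT3 letters from -51 to -43, counted from the start, while the Itih3 window held no match to any of the 4. The Serpina3n window held C/EBP letters from -227 to -220 and from -56 to -49, and the glucocorticoid receptor letters from -76 to -68. The Apcs window held the STAT3 letters from -244 to -236 and the IL-6 type 2 letters from -128 to -123, -51 to -46 and 18 to 23. The matches did not overlap one another in these windows. Of all 32851 promoter windows of this length in the table, 8.30% held the STAT3 letters, 31.8% the IL-6 type 2 letters, 40.7% the C/EBP letters and 6.85% the glucocorticoid receptor letters. Of the 7 genes of the set with a window, 2, 4, 4 and 1 held them. Hp, Fgl1 and Serpina3m were not among these windows. A match is a run of letters and not a shown binding site.

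Serpina3n and Serpina3m belong to the mouse family of serine protease inhibitors related to human alpha-1-antichymotrypsin, and lie next to each other with 0 protein-coding genes between them. The level of Serpina3n was 12.92, 11.62 and 11.94 in WT fed, 13.72, 13.51 and 13.34 in WT starved, 12.19, 13.21 and 12.01 in KO fed, and 12.71, 13.32 and 13.24 in KO starved mice. All 3 starved WT mice lay above the fed WT mice and above the starved KO mice. The difference for starvation was 1.36 ± 0.35 (SE, n = 3 per group), 2.57-fold, in WT mice at a limma adjusted p of 0.0941, and 0.62 ± 0.35 in KO mice (adjusted p = 0.703). In WT mice the adjusted p was 0.0287 without WT fed F1, 0.0466 without KO fed F6 and 0.0102 with the SD of each array as a covariate. With each array left out in turn it ran up to 0.319, and under the other settings up to 0.199, so the side of the threshold depended on these choices. The interaction was -0.74 ± 0.50 (adjusted p = 1).

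The level of Serpina3m was 12.90, 12.27 and 12.37 in WT fed, 12.97, 12.96 and 13.10 in WT starved, 12.61, 12.94 and 12.40 in KO fed, and 12.61, 12.91 and 12.74 in KO starved mice. Starved WT mice again lay above the fed WT and starved KO mice, by a smaller amount than for Serpina3n: the WT difference was 0.50 ± 0.18 (SE, n = 3 per group, limma adjusted p = 0.251). Serpina3 genes are closely related copies, and signal shared between them on the array cannot be told apart. Of their relatives, Serpina3c had the smallest unadjusted p between fed genotypes and for starvation in KO mice, with differences of 0.78 (adjusted p = 1) and -0.73 (adjusted p = 0.146).

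Crp and Apcs are the pentraxins, ring-shaped proteins that bind microbes and cell debris, and are neighbours with 0 protein-coding genes between them. The level of Crp was 12.73, 12.51 and 12.68 in WT fed, 12.56, 12.26 and 12.70 in WT starved, 12.73, 12.94 and 12.56 in KO fed, and 12.26, 12.46 and 12.69 in KO starved mice. All groups overlapped, and its means were lower in starved than in fed mice in both genotypes, by -0.13 ± 0.15 in WT and -0.28 ± 0.15 in KO livers (SE, n = 3 per group, limma adjusted p = 0.763 and 0.682). The level of Apcs was 11.37, 11.13 and 11.21 in WT fed, 11.73, 10.39 and 12.12 in WT starved, 11.39, 11.38 and 11.19 in KO fed, and 10.80, 11.22 and 10.75 in KO starved mice. The 3 starved WT mice held both the lowest and the highest Apcs value of all 12 arrays, with an SD of 0.91 against 0.11 to 0.26 in the other groups. The difference for starvation was 0.18 ± 0.34 in WT mice, and 0.69 without WT starved S4 and -0.18 without WT starved 3. In KO mice it was -0.39 ± 0.34 (adjusted p = 0.874).

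Cp encodes ceruloplasmin, the copper-carrying ferroxidase of plasma. Its level was 13.02, 11.78 and 12.10 in WT fed, 12.98, 12.81 and 12.90 in WT starved, 12.30, 13.13 and 12.10 in KO fed, and 12.15, 12.91 and 12.88 in KO starved mice. The starved WT mice lay close together (SD 0.08, n = 3) and the fed WT mice far apart (SD 0.64, n = 3), with F1 above all of the starved mice. The difference for starvation was 0.59 ± 0.34 in WT (limma adjusted p = 0.513) and 0.14 ± 0.34 in KO mice (adjusted p = 0.971).

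Fgl1, also called hepassocin, is a secreted hepatocyte protein with mitogenic activity on hepatocytes and a ligand of the T cell receptor LAG-3. Its level was 10.77, 11.21 and 11.29 in WT fed, 13.16, 12.44 and 12.74 in WT starved, 12.22, 12.69 and 11.70 in KO fed, and 12.07, 12.22 and 12.05 in KO starved mice. The fed WT mice were the 3 lowest of all 12 and the fed KO mice all lay above them. The starved WT mice all lay above the starved KO mice, which were within 0.17 of one another. The group means were 11.09 ± 0.28 (SD, n = 3) in WT fed, 12.78 ± 0.36 in WT starved, 12.20 ± 0.49 in KO fed and 12.11 ± 0.09 in KO starved mice. WT fed was thus the lowest group and overlapped with none, KO starved and KO fed overlapped, and KO fed also overlapped with WT starved.

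Fgl1 rose with starvation in WT mice by 1.69 ± 0.25 (SE, n = 3 per group, 95% interval 1.15 to 2.23, limma adjusted p = 0.00932). In KO mice the difference was -0.09 ± 0.25 (95% interval -0.63 to 0.45, adjusted p = 0.975). The interaction was -1.78 ± 0.35 (95% interval -2.54 to -1.02), with an unadjusted p of 0.000299 that did not pass over all genes (limma adjusted p = 1). Fed KO mice exceeded fed WT mice by 1.11 ± 0.25, 2.16-fold, with an unadjusted p of 0.000795 (adjusted p = 1), and starved KO mice lay below starved WT mice by -0.67 ± 0.25, with an unadjusted p of 0.0195 (adjusted p = 1). When each array was left out in turn, the WT difference stayed between 1.50 and 1.86, with adjusted p between 0.00529 and 0.0351, and the interaction between -2.03 and -1.54.

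Groups that did not overlap were counted for all 10 genes. Between fed genotypes, 1 of the 10 (Fgl1) was higher in every KO than in every WT mouse, beside 2.61% of all genes. Between starved genotypes, 4 of the 10 (Itih3, Serpina3n, Serpina3m and Fgl1) were lower in every KO mouse, beside 6.30% of all genes, and the same 4 were higher in every starved than in every fed WT mouse, beside 5.27% of all genes. Both of these counts use the same 3 starved WT mice. In KO mice, 0 of the 10 were apart between fed and starved in either direction, beside 16.5% of all genes.

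Single mice carried much of the spread. WT fed F1 held the highest value of its group for 8 of the 10 genes, but the lowest for Fgl1, and WT fed F2 the lowest for the other 9. KO fed F6 held the highest value for 9 of the 10 and KO fed F8 the lowest for all 10. KO starved S5 and WT starved S4 were lowest in their groups for 8 of the 10 each. The mean of the 10 genes, each centred on its own mean over the arrays, was 0.02, -0.65 and -0.37 in WT fed, 0.53, 0.07 and 0.43 in WT starved, -0.09, 0.45 and -0.32 in KO fed, and -0.33, 0.17 and 0.10 in KO starved mice. The other 491 of the 500 genes with the highest means, centred likewise, averaged from -0.19 in WT fed F2 to 0.10 in WT fed F1. The SD of all genes on an array was also smallest in WT fed F2, at 1.996, and was 2.133 in WT fed F1 and 2.148 in KO fed F6. Some genes outside the 10 also stood high in WT fed F1 and KO fed F6. Examples were Cdh5, an endothelial marker (9.86, 8.44 and 8.79 in WT fed, 8.68, 9.76 and 8.75 in KO fed), and Il6st (11.10, 9.94 and 10.22, then 10.27, 11.44 and 10.11). Clec4g, also an endothelial marker, did not (11.65, 11.78 and 12.06, then 12.17, 12.06 and 11.50). How many genes did so was not counted. WT starved 3 combined a small SD of 2.003 with a member mean of 0.43, and its median correlation with its own group, 0.9777, was the lowest of the 12 arrays. The part of this spread in the differences between groups was not tested beyond the fits with it as a covariate.

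**Figure D3:**
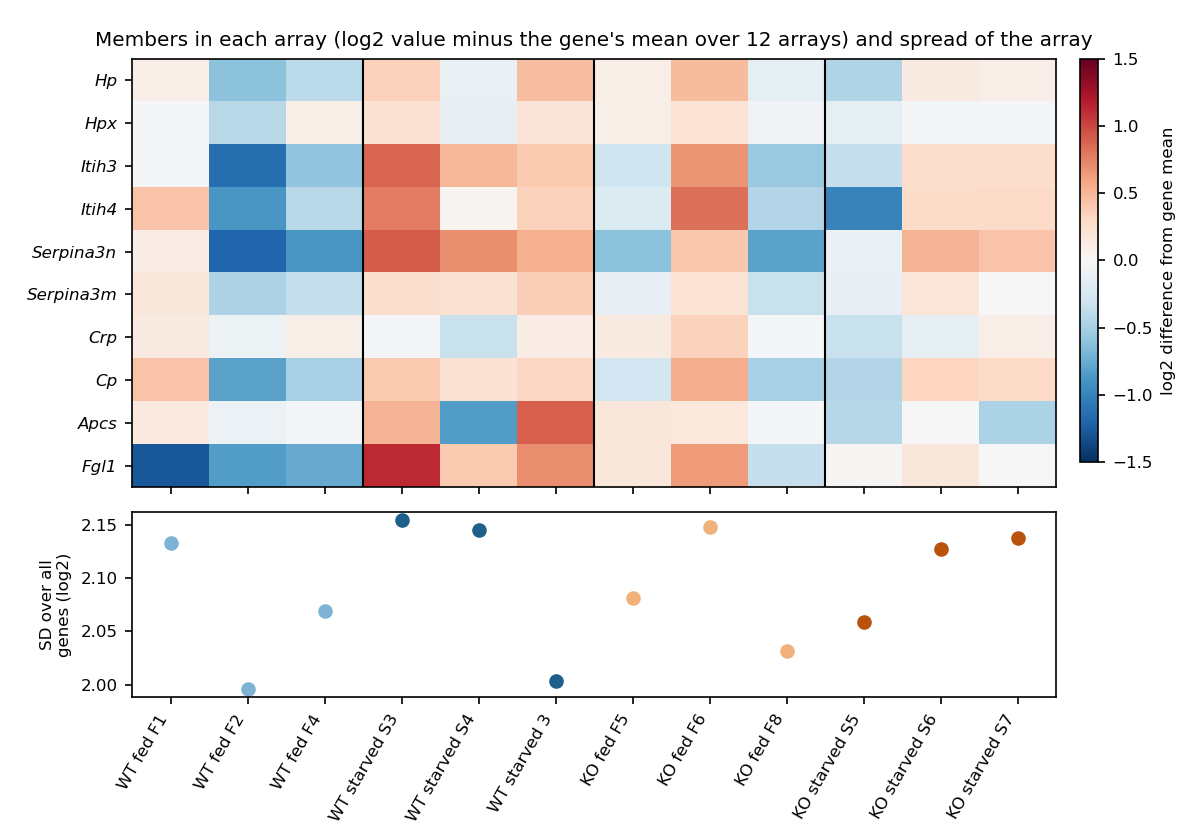
Top, log2 value of each of the 10 genes on each array minus the gene's mean over the 12 arrays, as colour (red higher, blue lower), with lines between the 4 groups; bottom, the SD of all genes on each array (log2). WT fed F2 is blue for all 10 genes and has the smallest SD, 1.996, while WT starved 3 is mostly red at an SD of 2.003.

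All 10 genes lay in the upper part of the scale. Ranked by the mean of all arrays among the 20719 genes, Hpx was 23rd, Hp 97th, Itih4 142nd, Serpina3n 173rd, Serpina3m 183rd, Crp 222nd, Cp 224th, Itih3 275th, Fgl1 390th and Apcs 747th. The highest value on an array was 14.55 to 14.67, and Hpx came within 0.45 to 1.18 of it and Hp within 0.85 to 2.05. The highest mean was that of a ribosomal RNA, Rn28s1, at 14.61, while Alb, the albumin gene, had a mean of 14.24 and Hpx one of 13.89. These are array values of each gene's own probes and give no order of transcript amounts between genes.

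The median range over the arrays was smaller for genes near the top of the scale. The 15 genes with a mean above 14 had a median range over the 12 arrays of 0.25, against 0.58 for the 113 genes between 13 and 14, 0.92 for the 280 genes between 12 and 13 and 0.98 for the 494 genes between 11 and 12. The range of Hpx, 0.62, was larger than that of 55.8% of the genes between 13 and 14, and the range of Hp, 1.09, larger than that of 85.8%. Between 12 and 13, Fgl1 (2.39), Serpina3n (2.10), Itih3 (1.99), Itih4 (1.83) and Cp (1.35) had larger ranges than 96.4%, 95%, 93.9%, 92.1% and 80.7% of the genes there, while Serpina3m (0.83) and Crp (0.68) had larger ranges than 41.8% and 29.3%. A fold change of a gene at 13 or above, such as Hp or Hpx, is read from a part of the scale where the median range is smaller, and whether their signal was saturated was not tested.

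**Figure D4:**
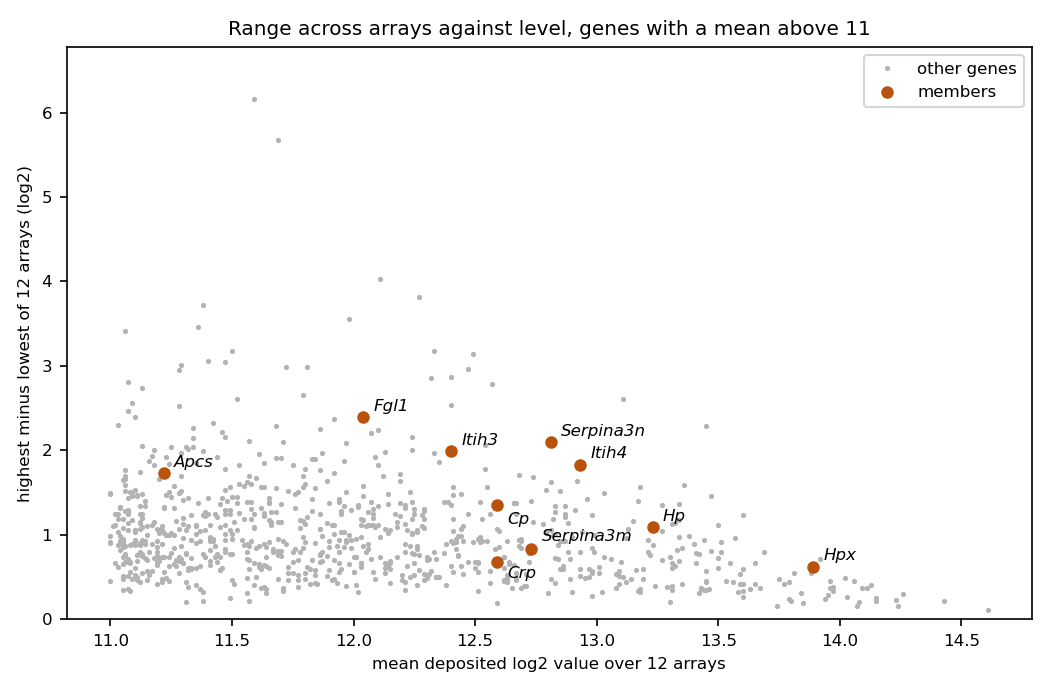
Highest minus lowest of the 12 arrays (log2) against the mean log2 value, for all genes with a mean above 11 (grey) and the 10 genes (orange, named). The median range falls from 0.98 between 11 and 12 to 0.25 above 14, with wide ranges in single genes above 13. Fgl1 and Serpina3n have the widest ranges of the 10, 2.39 and 2.10, and Hpx, nearest the top, has 0.62.

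Of 20 other positive acute phase genes, all found, 2 rose with starvation in WT mice and 0 fell. Lcn2, lipocalin 2, which binds bacterial siderophores, rose by 3.68 ± 0.53 (SE, n = 3 per group, limma adjusted p = 0.00932) and Il1rn, the interleukin-1 receptor antagonist, by 0.82 (adjusted p = 0.0353). In KO mice Il1rn rose by 1.00 (adjusted p = 0.015), and Orm1, an orosomucoid that binds drugs and lipids in plasma, fell by 0.73 (adjusted p = 0.0364). The list's median difference was 0.33 in WT and -0.59 in KO mice, 0.29 between fed and -0.33 between starved genotypes, and -0.67 for the interaction, where 19 of the 20 were negative. None passed between genotypes or for the interaction. The share of all genes with a negative interaction was not counted. All of these genes were read in the same mice, so their signs are not separate observations.

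Lcn2 lay at 8.35, 8.70 and 8.27 in WT fed, 12.49, 10.64 and 13.23 in WT starved, 10.77, 11.71 and 10.32 in KO fed, and 9.33, 9.50 and 9.29 in KO starved mice. Its groups did not overlap in any of the 4 pairs compared. Its interaction, -5.24 ± 0.75 (SE, n = 3 per group), had the smallest unadjusted p of all genes, 1.97e-05, with a limma adjusted p of 0.409. Orm2 lay at 10.11, 10.26 and 10.20 in WT fed, 10.99, 9.57 and 13.18 in WT starved, 12.05, 12.68 and 11.03 in KO fed, and 9.09, 8.87 and 9.11 in KO starved mice, and its interaction was -3.95 (adjusted p = 1). The wide spread of Orm2 in starved WT mice followed the same order of mice as that of Apcs, with S4 lowest and the mouse labelled 3 highest.

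None of the 12 negative acute phase genes, all found, passed in any comparison, and their medians lay between -0.01 and 0.06. Ttr, transthyretin, differed by -0.24 for starvation in WT (limma adjusted p = 0.333) and -0.22 in KO mice (adjusted p = 0.509), and Serpina6, the corticosteroid-binding globulin, by -1.25 in WT mice (adjusted p = 0.348). Rbp4, the plasma carrier of retinol, differed by 0.18 in KO mice (adjusted p = 0.555) and 0.17 in WT mice (adjusted p = 0.43), and 6 of the 12 were positive in each genotype. Of 22 genes of cytokine signalling and transcription factors, all found, 1 passed: Nfkbia, the NF-kappaB inhibitor, rose by 0.70 with starvation in KO mice (adjusted p = 0.0211). Its difference in WT mice was also positive, 0.40 (limma adjusted p = 0.152), and the interaction did not pass. In WT mice the smallest unadjusted p-values were those of Lifr, a receptor that pairs with gp130, with -1.15 (adjusted p = 0.0607), and Cebpa, with -0.64 (adjusted p = 0.136). In KO mice Lifr differed by a similar amount, -1.22 (limma adjusted p = 0.0597), and Cebpa by -0.23 (adjusted p = 0.859). Between fed genotypes, Cebpb differed by -0.63 and Socs3, a feedback inhibitor of the interleukin-6 pathway, by 0.38 (adjusted p = 1 for both). Between starved genotypes, Il1b, a cytokine that induces acute phase genes, differed by -0.72 and Socs3 by -0.24 (adjusted p = 1 for both).

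The 6 other genes whose pattern over the 12 arrays was most like the mean of the 10 genes, by Pearson's r, were Nlrc5 (0.941), Lrg1 (0.934), F13b (0.922), Il4ra (0.921), Cd33 (0.912) and 4933421E11Rik (0.911). Of 20709 genes, 12 had an r above 0.9. Lrg1, a leucine-rich glycoprotein of plasma, ranged from 10.71 to 12.82, and the other 5 ranged by less than 1 log2 unit each. The 12 points fall into 4 groups and differ in the spread of the whole array, so r describes likeness over these arrays alone.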

How the data were processed

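Liver RNA of 12 mice was labelled with whole-transcript kits and hybridised to Affymetrix arrays, per the labels' protocols. The deposited table holds log2 values per probe set that the authors made with RMA; oligo and limma are also named in the submitters' processing notes. RMA normalizes arrays to one another by quantiles, which removes a shift shared by all genes. Array model, annotation and build are not given in the sources used here. Of 28944 rows, 5132 without a symbol were left out, and each of 1683 symbols with several rows took the row with the highest mean. No filter was applied.

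Log2 values were fitted with limma 3.58.1 (R 4.3.3, lmFit, eBayes, 8 residual degrees of freedom) as 4 group means, with Benjamini-Hochberg adjustment over 20719 genes. The test was also run on simulated data with independent noise for each gene and array. That check does not cover spread shared by a whole array, as seen in these data. Each array is labelled as a separate mouse. The 10 genes and all lists were chosen with earlier results of these data known. All 10 genes are named. Of each list, up to 4 past the threshold per comparison are named, or else the 2 with the smallest unadjusted p. The 6 genes most like the mean of the 10 are also named, and a few others as examples. Numbers in the sample titles are not said to pair mice; deviations of same-numbered samples had a block correlation of 0.023. RefSeq held 9 of the 10 accessions and all 10 symbols. Figures used matplotlib 3.10.9 in Python 3.11.15. Alternatives changed 1 choice at a time: normalization, row choice, a filter on dim genes, array weights, eBayes options, the groups in the fit, array SD as a covariate, the title number as a block, and each array left out.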

Additional observations from a re-analysis of the deposited data

Results flagged for a closer look

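Fgl1 values of KO mice lay on opposite sides of the WT values in fed and in starved mice, but the test of the interaction did not pass over all genes. The difference of the responses to starvation, KO minus WT, was -1.78 on the log2 scale (limma interaction, unadjusted p = 0.000299, adjusted p = 1 over all genes, 3 mice per group). All 3 fed KO mice lay above all 3 fed WT mice, beside 2.61% of all genes. All 3 starved KO mice lay below all 3 starved WT mice, beside 6.30% of all genes. The share of all genes that did both was not counted. Fgl1 was not alone in this: of the other positive acute phase genes, Lcn2, Orm1 and Orm2 also did both.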

How the results depend on the processing

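Precision is limited by 3 arrays per group. When each array was left out in turn, 583 of 600 differences of the 10 genes kept their direction and side of the threshold, as did 520 of 540 under 11 other settings. The cause of the exceptions was not tested. Many of these differences could not change direction. A difference between groups does not depend on an array outside them, and several settings changed only the p-values. Most differences were also far from the threshold, so these counts do not measure how firm a result is. Centring, loess and quantile normalization moved the median of all genes by less than 0.1. The title number as a replicate block changed no call of the 10 genes (0, 0, 1, 0 and 0 called between fed genotypes, between starved genotypes, for starvation in WT, in KO, and for the interaction; 300 of all genes in WT and 224 in KO).

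With array weights, which ran from 0.206 (WT starved 3) to 6.14 (KO fed F5), the genes of the 10 called were 2 between fed genotypes (Fgl1 0.95, adjusted p = 0.00926; Hp 0.48, 0.0482), 6 for starvation in WT (Fgl1 with Hp 0.54, Itih3 1.26, Serpina3n 1.61, Serpina3m 0.58 and Cp 0.75), 3 in KO (Itih3 0.49, Serpina3n 1.03 and Cp 0.53) and 1 for the interaction (Fgl1 -1.61, 0.0287), limma. All genes called were then 1267, 13, 5600, 7639 and 106, in place of 0, 0, 292, 212 and 0. Reversed with array weights were Apcs in WT (-0.04), Itih4 in KO (0.37), and Crp between starved genotypes (0.06) and in the interaction (0.01). Median centring reversed Crp between starved genotypes (0.01). With the SD of each array as a covariate, 3 of the 10 were called in WT (Fgl1, Itih3 0.95, Serpina3n 1.15), Itih3 in KO was -0.01, and all genes called were 4 between fed genotypes, 1133 in WT and 880 in KO. With only the groups compared, 0 of the 10 were called in WT (Fgl1 1.69, adjusted p = 0.0904), and all genes called were 11 in WT and 357 in KO.

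Leaving out each array gave 0 to 3 genes called between starved genotypes (3 without KO starved S5), 64 (without WT starved S4) to 659 (without WT starved 3) in WT, 45 (without KO fed F5) to 344 (without WT starved 3) in KO and 0 to 1 for the interaction. In WT, 1 to 2 of the 10 were called, Serpina3n being added without WT fed F1 or KO fed F6. Differences that changed sign ranged, between fed genotypes, from -0.03 to 0.71 for Itih4, -0.06 to 0.69 for Serpina3n, -0.01 to 0.33 for Serpina3m and -0.11 to 0.57 for Cp, all negative without KO fed F6. Between starved genotypes they ranged from -0.16 to 0.06 for Crp and -0.38 to 0 for Cp. For starvation they ranged from -0.18 to 0.69 for Apcs in WT, and in KO from -0.12 to 0.48 for Itih3, -0.46 to 0.22 for Itih4, -0.02 to 0.25 for Serpina3m, -0.07 to 0.45 for Cp and -0.34 to 0.15 for Fgl1.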
